A study of Mus musculus with 27 samples.

Results

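ChIP-seq for Runx1 and for Runx2 in control mK4 cells was compared, peak by peak. The Runx1 list held 10187 peaks and the Runx2 list 17595 peaks, together 27782 of the 43390 ChIP-seq peaks of the series. A peak was called shared when it overlapped a peak of the other antibody by at least 1 bp, and Runx1-only or Runx2-only when it did not. By this rule 6301 Runx1 peaks and 6191 Runx2 peaks were shared, 3886 peaks were Runx1-only and 11404 were Runx2-only.

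Runx1 and Runx2 are transcription factors of the Runt family, which bind DNA through the Runt domain together with the partner Cbfb. Both read the same short DNA word, in which TGTGGT is the core and TGCGGT a common variant. Runx1 is best known as a regulator of blood cell formation and Runx2 as a regulator of bone formation. Both can activate or repress genes, repression passing in part through Groucho corepressors of the Tle family.

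mK4 is a mouse cell line derived from the metanephric mesenchyme, the tissue from which the nephrons of the kidney form. Control cells were the parental (WT) line. Runx1KO cells were sub-lines of it in which CRISPR-Cas9 removed the Runx1 exon that carries the start codon used in mK4 cells, and they are used here for their RNA-seq, their Runx2 ChIP-seq and the classes of ATAC-seq regions. Each assay was run on 3 replicates per line, grown with 10% FBS. The number of clones behind the Runx1KO libraries is not given in the sources used here. The question of the comparison was whether the 2 paralogs occupied the same places in the genome.

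Per the methods the replicates were pooled for peak calling, and regions that the Runx1 antibody also enriched without Runx1 were dropped. The peak names of each list, however, carry 1 library name, and the lists are in the narrow format where the methods name broad peaks, so whether the reads and folds stand for all replicates is not certain. There is 1 list per antibody and no value per replicate, so no difference between the lists could be tested against replicate error. The intervals given for shares of peaks are Wilson 95% intervals and cover counting error only. A peak missing from a list was below the threshold of that list, which is not the same as being unbound. The 2 lists also differed in depth. The lowest background, the read number expected at a summit, was 2.43 reads in the Runx1 list and 3.09 reads in the Runx2 list. The peak names of the Runx1 list carried sequencing lane 1 and those of the Runx2 list lane 2, so that antibody and lane cannot be told apart.

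The summit sequences show what each class looks like at the DNA level. Each line gives the summit base of a peak with 50 bases to either side, plus strand of mm9. Capitals mark the core TGTGGT or the variant TGCGGT on either strand. The first is the shared peak with the highest rank in both lists, in an intron of Fam71f1 at chr6:29276969-29277069. The next is the strongest shared peak without either word, between genes near Gpx6, at chr13:21418988-21419088. They are followed by the strongest Runx1-only peaks with and without the word, in an intron of 4933404M02Rik at chr2:70365298-70365398 and between genes near Oxr1 at chr15:41223147-41223247. The strongest Runx2-only peaks with and without it lay between genes near Smyd2, at chr1:191765864-191765964, and in an intron of 2810002N01Rik, at chr12:112970793-112970893. Windows touching an annotated exon were passed over.
Shared, Fam71f1: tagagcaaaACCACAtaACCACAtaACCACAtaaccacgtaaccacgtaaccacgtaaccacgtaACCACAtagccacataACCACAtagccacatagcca
Shared, Gpx6: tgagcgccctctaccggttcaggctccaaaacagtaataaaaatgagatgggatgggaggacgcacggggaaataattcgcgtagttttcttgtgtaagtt
Runx1-only, 4933404M02Rik: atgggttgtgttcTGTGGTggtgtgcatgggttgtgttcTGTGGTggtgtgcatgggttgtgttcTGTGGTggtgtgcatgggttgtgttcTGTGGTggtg
Runx1-only, Oxr1: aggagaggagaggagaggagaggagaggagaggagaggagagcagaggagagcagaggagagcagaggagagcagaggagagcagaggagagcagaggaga
Runx2-only, Smyd2: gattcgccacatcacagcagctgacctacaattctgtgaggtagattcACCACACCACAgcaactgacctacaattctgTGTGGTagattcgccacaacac
Runx2-only, 2810002N01Rik: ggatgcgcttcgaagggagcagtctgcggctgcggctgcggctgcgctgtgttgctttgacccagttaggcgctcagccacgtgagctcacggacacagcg

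The shared window at Fam71f1 held 5 matches in a tandem array, and the Runx1-only window at 4933404M02Rik held 4 in another. The Runx1-only window at Oxr1 was a simple purine repeat. The 31 bases at the summit occurred 9 times in the genome at 4933404M02Rik and 45 times at Oxr1, and once at the other peaks printed here.

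Most Runx1 peaks had a Runx2 peak, while most Runx2 peaks had no Runx1 peak. The share of Runx1 peaks with a Runx2 peak was 61.9% (interval 60.9 to 62.8%). The share of Runx2 peaks with a Runx1 peak was 35.2% (interval 34.5 to 35.9%). The share depended on the overlap asked for. With summits no more than 100 bp apart it was 50.98% of Runx1 and 29.5% of Runx2 peaks. Peaks without a partner were rarely near misses. A Runx1-only peak lay a median of 85950 bp from the nearest Runx2 peak, and 6.28% of them had one within 1 kb.

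Shared peaks were the stronger and wider ones in both lists. Fold enrichment, the reads at the summit over the local background as MACS2 gives it, had a median of 4.78 at shared and 4.10 at Runx1-only peaks of the Runx1 list. In the Runx2 list it was 5.37 at shared and 3.91 at Runx2-only peaks. The summit of a shared Runx1 peak held a median of 18 reads and that of a Runx1-only peak 14. The summit of a shared Runx2 peak held 28 reads and that of a Runx2-only peak 17. Median widths were 211 bp against 133 bp in the Runx1 list and 361 bp against 172 bp in the Runx2 list. Over all combinations of 1 shared and 1 Runx1-only peak the shared one had the higher fold enrichment in 69.9%, and over those of 1 shared and 1 Runx2-only peak in 79.9%. The ranges of the classes overlapped.

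Sharing rose with strength. Each list was cut into 4 bins of about equal size by fold enrichment. Among Runx1 peaks the share was 45.7% in the weakest bin, 49.2% and 63.2% in the next ones and 90.2% in the strongest. Among Runx2 peaks it was 12.7%, 18.8%, 34.3% and 75.7%. In the strongest bins 242 Runx1 peaks and 1068 Runx2 peaks were still without a partner.

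The 3 classes also differed in how often their summit sequence recurs in the genome. The 31 bases at the summit occurred more than once in mm9 at 91.0% of Runx1-only peaks (3444 of 3785 on assembled chromosomes), at 15.4% of shared and at 24.6% of Runx2-only peaks. They occurred at least 1000 times at 58.0% of Runx1-only peaks, with a median of 1578 occurrences in that class. A single word of 21 bases, the commonest in the class and chosen after the sequences were seen, stood in 13.3% of Runx1-only windows reaching 100 bases to either side of the summit, against 1.26% of shared and 2.30% of Runx2-only windows. How reads with several places in the genome were aligned is not given in the sources used here, and its part in the classes was not tested.

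Where the summit bases were unique, nearly every Runx1 peak had a Runx2 peak. Of 5579 such Runx1 peaks 5238 were shared (93.9%, interval 93.2 to 94.5%), against 952 of 4396 (21.7%, interval 20.5 to 22.9%) where the summit bases recurred. With unique summits the share was 86.4% even in the weakest bin of Runx1 peaks and reached 99.1% in the strongest. The split made a smaller difference in the Runx2 list. With unique summits 37.7% of Runx2 peaks were shared, and with recurring ones 25.2%. The Runx2-only class therefore remained at 8498 peaks with unique summits, and the Runx1-only class fell to 341.

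**Figure D1:**
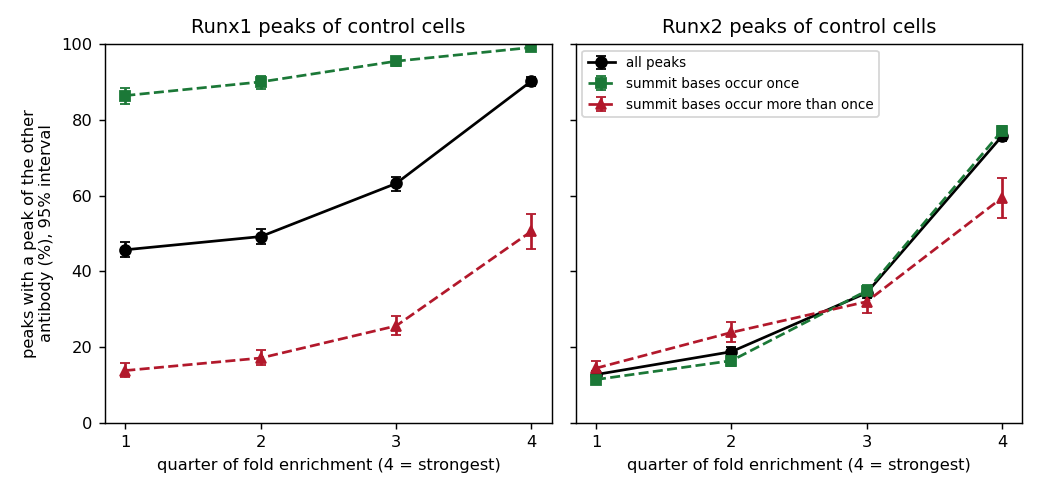
Share of peaks with a peak of the other antibody (y axis, %, Wilson 95% intervals) by bin of fold enrichment (x axis, 4 is the strongest), for Runx1 peaks (left) and Runx2 peaks (right). Black circles are all peaks, green squares those whose 31 summit bases occur once in the genome and red triangles those whose summit bases recur. Runx1 peaks with unique summits sit between 86.4% and 99.1%, above those with recurring summits at 13.8% to 50.6%, while both kinds of Runx2 peaks climb with strength.

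At shared places the summits of the 2 antibodies lay close together. The overlap rule itself keeps them close, as median widths were 211 bp (Runx1) and 361 bp (Runx2). The distance that overlap alone would give was not computed. There were 6320 overlapping pairs. For the 6301 shared Runx1 peaks, the nearest summit of an overlapping Runx2 peak lay a median of 42 bp away (quartiles 17 and 83 bp). It lay within 50 bp at 56.9% of them and within 100 bp at 82.4%. The signed median along the plus strand was -1 bp. Pairs were not oriented by motif or gene, so a shift relative to either was not tested. The median distance was 30 bp in the strongest bin of pairs and 57 bp in the weakest. It was 39 bp where the Runx1 window held TGTGGT or TGCGGT and 52 bp where it did not.

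Strength was also related between the antibodies. Across the pairs, log2 fold enrichment had a Pearson correlation of 0.68 and a Spearman correlation of 0.633. This is a description over peaks, which share libraries, depth and base composition. The ratio of Runx2 to Runx1 fold enrichment had a median of 1.08 and quartiles of 0.934 and 1.27. The Runx2 summit held more reads in 89.9% of pairs, and the Runx2 peak was the wider in 84.3%, in the list of greater depth.

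**Figure D2:**
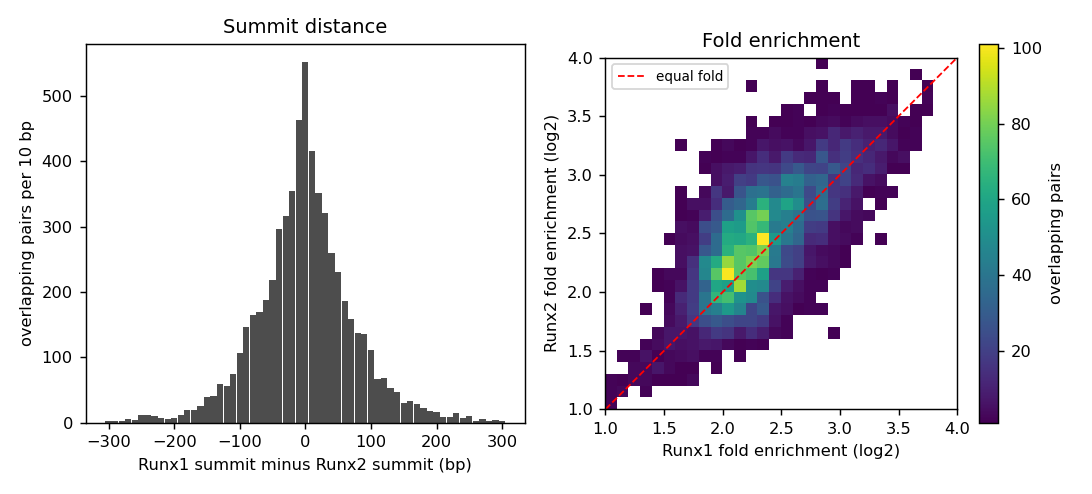
Overlapping pairs of a Runx1 and a Runx2 peak. Left, number of pairs per 10 bp (y axis) by the position of the Runx1 summit relative to the Runx2 summit (x axis, bp), which peaks at 0 with a median distance of 42 bp. Right, fold enrichment of both peaks on log2 axes with colour for the number of pairs and a dashed line of equal fold, along which the pairs spread with a Pearson correlation of 0.68.

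Runx1-only peaks rarely overlapped a called ATAC-seq region. Peaks with such an overlap are called accessible here, and a missing region is not proof of closed chromatin. The ATAC-seq regions came in 3 classes made by the authors from control and Runx1KO cells, with 8741 Runx1-dependent, 37481 Runx1-independent and 9427 Runx1KO-induced regions. An ATAC-seq region was overlapped by 78.5% of shared Runx1 peaks (interval 77.4 to 79.5%) and by 63.3% of Runx2-only peaks (62.4 to 64.2%), but by 7.05% of Runx1-only peaks (274 peaks, 6.29 to 7.90%). On every one of the 19 autosomes the Runx2-only share was above the Runx1-only share. The Runx1-only share ranged there from 1.84 to 17.97% and the Runx2-only share from 56.6 to 74.7%.

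Most of the accessible peaks lay in regions that kept their accessibility without Runx1. Of shared peaks 60.7% overlapped Runx1-independent, 16.05% Runx1-dependent and 1.71% Runx1KO-induced regions. Of Runx2-only peaks the shares were 52.5%, 8.65% and 2.14%. Runx1-dependent regions thus held a larger part of shared peaks (interval 15.2 to 17.0%) than of Runx2-only peaks (interval 8.14 to 9.18%). Of Runx1-only peaks they held 1.29%.

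The low share of Runx1-only peaks was present at every strength and moved with the copies of the summit bases. In the 4 bins of fold enrichment between 5.20 and 8.37% of Runx1-only peaks were accessible, against 74.1 to 85.3% of shared ones. Of Runx1-only peaks with unique summit bases 65.7% (224 of 341, interval 60.5 to 70.5%) overlapped an ATAC-seq region, and of those with recurring bases 1.45% (50 of 3444). Among Runx2-only peaks the values were 81.7% and 9.90%, and among shared peaks 91.0% and 18.3%. Peaks with recurring summits thus seldom overlapped a called ATAC-seq region in any class. Whether such regions could be called at recurring sequence was not tested.

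**Figure D3:**
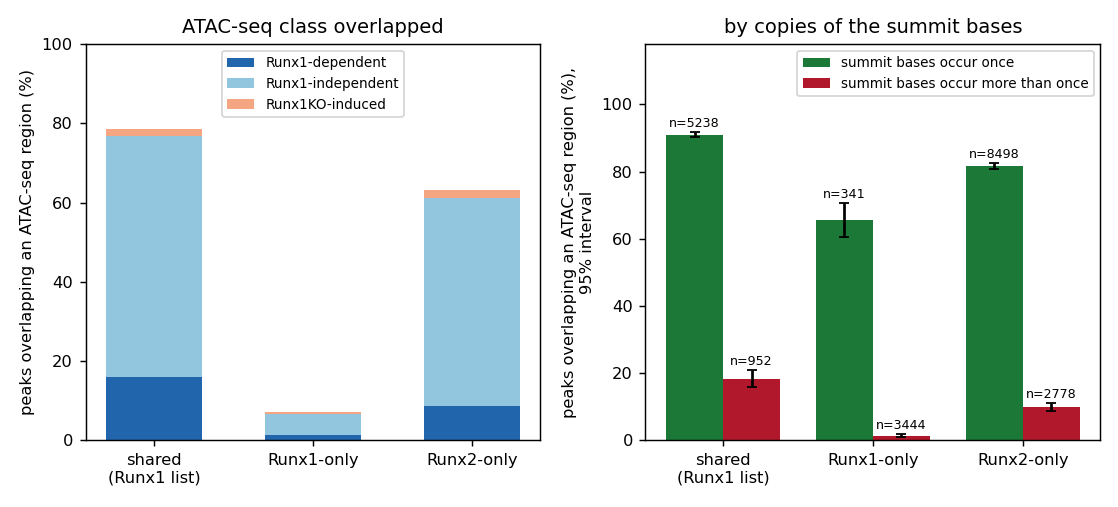
Left, share of shared, Runx1-only and Runx2-only peaks that overlap an ATAC-seq region (y axis, %), stacked by the class of the region. Right, the same share with Wilson 95% intervals for peaks whose 31 summit bases occur once (green) or more than once (red), the number of peaks above each bar. Runx1-only peaks reach 7.05% in all and 65.7% where the summit bases are unique.

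The Runx word was commonest at shared summits. TGTGGT, searched on both strands to 100 bases either side of the summit, was found at 45.4% of shared Runx1 peaks (interval 44.2 to 46.7%), 33.2% of Runx2-only peaks (32.3 to 34.1%) and 14.1% of Runx1-only peaks (13.0 to 15.2%). Windows of the same length 1 kb away held it at 14.0%, 13.6% and 10.6%, and 16.2% of all ATAC-seq regions held it. The variant TGCGGT stood at 24.8%, 14.3% and 3.67% of the classes, against 2.1%, 2.45% and 1.33% in the windows 1 kb away. Either word stood at 65.3% of shared, 44.8% of Runx2-only and 16.9% of Runx1-only summits. Where present, it lay a median of 26.5 bp from a shared, 31.5 bp from a Runx2-only and 42.5 bp from a Runx1-only summit.

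With unique summit bases the intervals of the unshared classes overlapped. TGTGGT stood at 34.3% of the 341 Runx1-only peaks (interval 29.5 to 39.5%), 37.7% of the Runx2-only peaks (36.7 to 38.8%) and 49.2% of the shared peaks (47.8 to 50.5%) of that kind. At recurring summits it stood at 12.0% of Runx1-only, 19.3% of Runx2-only and 24.8% of shared peaks.

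AP-1 is the family of Fos and Jun factors, whose word TGACTCA (or TGAGTCA) often marks enhancers. It stood at 13.4% of shared (interval 12.6 to 14.3%), 7.33% of Runx2-only (6.86 to 7.82%) and 1.72% of Runx1-only summits (1.35 to 2.18%), against 3.43%, 2.94% and 2.25% in windows 1 kb away. All ATAC-seq regions held it at 21.2%, more often than any of the 3 classes. With unique summits it stood at 15.4% of shared, 9.17% of Runx2-only and 15.8% of Runx1-only peaks, so that Runx1-only peaks were then above Runx2-only peaks.

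Inside and outside ATAC-seq regions the words differed by class. TGTGGT stood at 35.6% of Runx2-only peaks outside every ATAC-seq region (4061 peaks) and at 31.9% of those inside (7215 peaks). For AP-1 the values were 2.86% and 9.84%, the first close to the 2.75% of the windows 1 kb away. At shared peaks TGTGGT stood at 41.1% outside and 46.5% inside, and AP-1 at 3.53% and 15.9%. At Runx1-only peaks TGTGGT stood at 12.7% outside, against 10.3% in windows 1 kb away, and at 31.4% inside. The variant TGCGGT was less common outside, at 9.70% against 28.7% inside at shared peaks and at 9.97% against 16.7% at Runx2-only peaks.

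Other words differed between the classes in several orders. The GC box GGGCGG, a promoter element read by Sp factors, stood at 24.1% of shared, 23.4% of Runx2-only and 4.49% of Runx1-only summits. The Ets word CCGGAAG stood at 6.12%, 4.99% and 1.11%, and the Tead word GGAATG at 16.2%, 11.9% and 7.95%. The Zeb word (CAGGTG or CAGGTA) was less common at the summits than 1 kb away in each class, with 16.9% against 23.0% at shared, 20.9% against 23.0% at Runx2-only and 16.3% against 21.6% at Runx1-only peaks. The E-box CAGATG was commonest at Runx1-only summits, at 23.5% against 14.9% in the windows 1 kb away. It stood at 15.5% of shared and 14.8% of Runx2-only summits. This word was not split by copies of the summit bases, which recurred at 91.0% of Runx1-only peaks. Outside ATAC-seq regions it stood at 24.4% of Runx1-only, 19.9% of Runx2-only and 19.3% of shared peaks, and inside at 11.7%, 11.9% and 14.6%. Inside these regions the Tead word stood at 16.1% of Runx1-only (274 peaks), 12.3% of Runx2-only and 17.1% of shared peaks. For the GC box the values inside were 21.9%, 33.9% and 29.3%. The Ctcf word was found at 7.87% of shared, 8.82% of Runx2-only and 1.88% of Runx1-only summits.

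**Figure D4:**
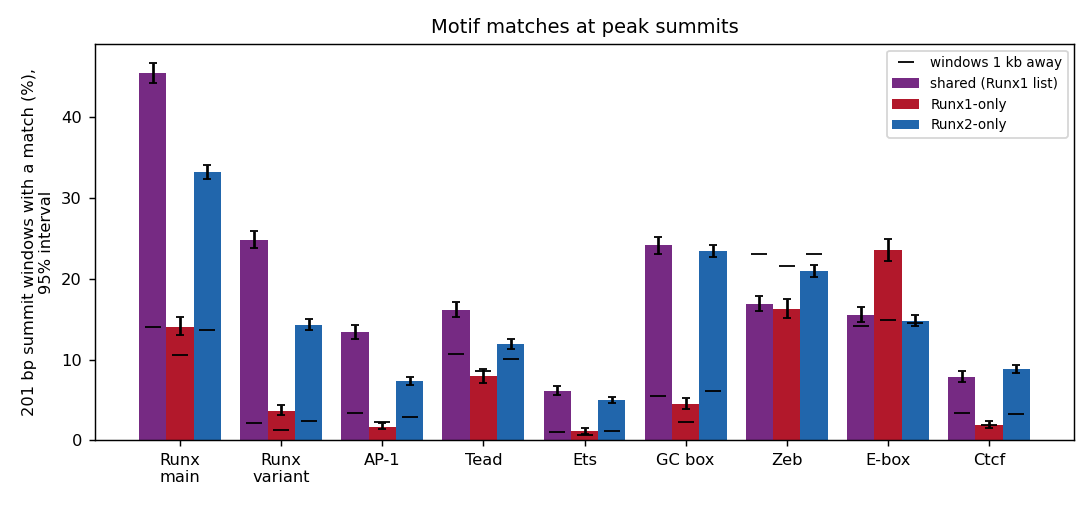
Share of summit windows, 100 bases to either side, with a match to each motif on either strand (y axis, %, Wilson 95% intervals) in shared, Runx1-only and Runx2-only peaks, with black dashes for windows of the same length 1 kb away. Runx main is the core word, found at 45.4%, 14.1% and 33.2% of the 3 classes, and Runx variant the form with C in place of T.

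Over all summits, shared and Runx2-only peaks lay at promoters to nearly the same degree, and Runx1-only peaks far less often. The summit was within 1 kb of the start of a protein-coding gene at 37.5% of shared, 37.9% of Runx2-only and 3.25% of Runx1-only peaks. The median distance to the nearest start was 6511 bp, 7015 bp and 69870 bp. Between genes and over 1 kb from a start lay 36.0%, 37.97% and 68.5%, and in introns 25.1%, 22.9% and 27.9%. Chromosome X held 8.90% of Runx1-only peaks (337) but 2.42% of shared and 3.49% of Runx2-only peaks. Recurring summits made up 98.5% of the Runx1-only peaks of chromosome X and 62.7% of its Runx2-only peaks. With unique summits 42.8% of shared, 48.8% of Runx2-only and 23.8% of Runx1-only peaks were within 1 kb of a start.

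The Runx2 list of Runx1KO cells held 15608 peaks, and these fell most often on places that both antibodies had enriched in control cells. They overlapped 82.5% of shared Runx1 peaks (interval 81.5 to 83.4%), 50.9% of Runx2-only peaks and 5.996% of Runx1-only peaks (5.29 to 6.79%). Among Runx2 peaks the difference held within each bin of fold enrichment, with 53.0% of shared against 36.9% of Runx2-only peaks in the weakest and 94.7% against 83.1% in the strongest. Of the 341 Runx1-only peaks with unique summits, 129 (37.8%) had a Runx2 peak in Runx1KO cells although they had none in control cells. The Runx2 list of Runx1KO cells was the deeper, with a lowest background of 3.92 reads against 3.09 reads in control cells. New binding and weak sites that passed the threshold with greater depth cannot be told apart here.

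The strongest shared peaks reached over 11-fold enrichment in both lists. At Notch1, which encodes a Notch receptor, the summits of both antibodies fell on the same base, in an exon 244 bp from the start, with a fold enrichment of 13.8 for Runx1 and 13.0 for Runx2. At Fam71f1 the values were 13.6 and 13.7. An intronic peak of Fat1, an atypical cadherin, had 13.9 and 12.5 and lay in a Runx1-dependent region, as did a peak between genes near Map4k3, a kinase, with 13.6 and 11.6. A peak near Hmgn1, a nucleosome-binding protein, had 12.3 and 14.6 and lay outside every ATAC-seq region. An intronic peak of Sik3, a salt-inducible kinase, had 12.6 and 11.4. All 6 had a Runx2 peak in Runx1KO cells and unique summit bases, and 5 held TGTGGT, Notch1 being the exception.

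Runx1-only peaks were weaker at the top. The 6 strongest lay near Thsd7a, Oxr1, 4933404M02Rik, Gm10287, Nudt5 and Tcfec, with fold enrichments from 7.01 to 7.88 and 23 to 26 reads at the summit. None of them overlapped an ATAC-seq region, and all had recurring summit bases, from 5 occurrences near Nudt5 to 1101448 near Tcfec. The strongest Runx1-only peaks with unique summits, taken after the copies had been counted, lay near Adck4 (6.61-fold), Bach2 (6.13-fold) and Arsg (6.08-fold). The first of these lay in a Runx1KO-induced region 81 bp from the start of Adck4 and the next, in an intron of Bach2, a transcriptional repressor known from B cells, outside every ATAC-seq region.

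The strongest Runx2-only peak lay at the start of Dnajc10, a chaperone of the endoplasmic reticulum, with a fold enrichment of 13.1 and 68 reads at the summit. The others lay near 2810002N01Rik, Ccr8, Smyd2, Golga7 and Riok2, with 9.04 to 11.0-fold enrichment. All 6 had a Runx2 peak in Runx1KO cells, and 5 overlapped a Runx1-independent region, the one near the chemokine receptor gene Ccr8 none. TGTGGT stood at 2 of the 6, near Smyd2 and Golga7.

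Peaks of a class also gathered at single genes. By nearest start within 100 kb, Chd2, a chromatin remodeller, had 10 shared and 2 Runx2-only peaks. Runx1 itself had 7 shared, 1 Runx1-only and 2 Runx2-only peaks, as many shared ones as Ptpn14, a phosphatase, and Rere, a nuclear receptor corepressor. Mkl2, a coactivator of serum response factor, led the Runx2-only class with 9 peaks and had 1 Runx1-only and no shared peak. Dmd, the dystrophin gene, led the Runx1-only class with 6 peaks, between genes or in its introns and all with recurring summits of 267 to 23809 occurrences, and was listed at 0 TPM in all 6 libraries. Genes tied with those named were left out in alphabetical order.

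Peaks also lay at the genes of the Runx family. At Runx1 the shared peak strongest for Runx1, in an exon 466 bp from a start, had a fold enrichment of 9.30 for Runx1 and 8.80 for Runx2, lay in a Runx1-dependent region and had no Runx2 peak in Runx1KO cells. Runx1KO cells lack an exon of this gene, and whether the peak lies in the removed DNA was not tested. Lost signal and lost DNA therefore cannot be told apart there. An intronic shared peak was the strongest for Runx2, with 8.55 for Runx1 and 9.47 for Runx2. A shared peak at another start of the gene had 4.40 and 7.72 and lay outside every ATAC-seq region. Runx2 had 2 Runx2-only peaks near its start, with fold enrichments of 4.19 and 3.48, and no Runx1 peak was assigned to it. Cbfb, the shared partner, had 2 Runx2-only peaks, Runx3 had 1 shared and 3 Runx2-only peaks, and the corepressor gene Tle4 had 2 shared and 4 Runx2-only peaks.

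RNA-seq levels were set beside the peaks, in TPM, which scales reads to gene length and library size. Runx1 was at 18.7, 15.6 and 17.9 TPM in control and at 30.3, 30.1 and 28.5 TPM in Runx1KO libraries (log2 fold change 0.74, SE 0.07, limma adjusted p 6.72e-05), with no overlap but under the 2-fold limit. A TPM of the whole gene does not measure the removed exon and so does not check the knockout. Runx2 was at 6.0, 4.9 and 5.5 TPM in control and 3.9, 3.7 and 3.6 TPM in Runx1KO cells (log2 fold change -0.45, SE 0.08, limma adjusted p 0.00175), with no overlap but short of a 2-fold change. Runx3 did not exceed 0.3 TPM. Cbfb was at a mean of 78.2 TPM in control and 71.4 to 74.3 TPM in Runx1KO libraries.

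Genes of the shared and Runx2-only classes were mostly expressed, and genes of the Runx1-only class mostly were not. Each gene was given to the shared class if it was the nearest protein-coding gene to a shared peak within 100 kb, and otherwise to the Runx1-only or Runx2-only class, with genes next to both unshared kinds kept apart. The mean control level was at least 1 TPM in 82.7% of 3776 genes of the shared class, 75.1% of 3861 of the Runx2-only class and 29.0% of 715 of the Runx1-only class, against 38.1% of 9884 genes without a peak. Median levels in the 3 control libraries were 25.9, 25.1 and 25.8 TPM in the shared class and 18.4, 18.2 and 18.3 TPM in the Runx2-only class. In the Runx1-only class the median was listed at 0 in each library. Genes next to a Runx1-only peak that also had a shared or a Runx2-only peak are outside that class. Of the 437 genes next to both unshared kinds 62.5% reached 1 TPM.

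Genes next to shared or Runx2-only peaks were called changed in Runx1KO cells about as often as all genes or less often. A change was called at over 2-fold with a limma adjusted p under 0.05, on log2(TPM + 1), which understates the change of low genes. In bulk libraries fewer expressing cells and less RNA per cell cannot be told apart. Of 13067 genes tested 666 were lower (5.1%) and 1034 higher (7.91%). Of the 10708 tested genes with a matched position 5.3% were lower and 7.84% higher, and 29.6%, 7.53% and 44.7% were nearest to a shared, a Runx1-only and a Runx2-only peak. In the shared class 175 of 3167 were lower (5.53%, interval 4.78 to 6.38%) and 163 higher (5.15%, 4.43 to 5.97%), the latter with its interval below the background. In the Runx2-only class 134 of 2989 were lower (4.48%, 3.798 to 5.29%) and 197 higher (6.59%, 5.76 to 7.54%). The interval for higher genes lay below the background. That for lower genes ended just under the share of genes with a matched position and held the 5.1% of all genes tested. In the Runx1-only class 19 of 223 were lower (8.52%, 5.52 to 12.9%) and 27 higher (12.1%, 8.46 to 17.0%). Of the 4046 genes without a peak 5.41% were lower and 10.7% higher. With unique summits alone the Runx1-only value for lower genes was 3.70% (interval 1.02 to 12.5%).

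Among called genes of the shared class Gxylt2, a xylosyltransferase that modifies Notch, fell furthest, from 57.6, 53.2 and 55.8 TPM to 0.3, 0.2 and 0.0 TPM (log2 fold change -5.61, SE 0.10, limma adjusted p 2.22e-08). Its shared peak in an intron had fold enrichments of 6.42 and 5.94 and lay in a Runx1-dependent region. Inhbb, an activin subunit, and Tnc, a matrix glycoprotein, followed. Mybpc2, a myosin-binding protein, rose from at most 0.3 TPM to 41.4 to 48.6 TPM, Entpd3 from at most 0.2 TPM to 37.9 to 39.4 TPM, and Tmem51, listed at 0 in control libraries, to 29.0 to 31.5 TPM. The shared peak of Entpd3 lay in a Runx1KO-induced region.

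Among called genes of the Runx2-only class the cardiac homeobox gene Nkx2-5 fell from 53.9, 57.1 and 60.3 TPM to 0.9, 1.3 and 1.3 TPM, and Igfbp2, an Igf binding protein, from 409.7 to 414.6 TPM to 15.9 to 17.0 TPM. Fam149a fell from 26.5 to 28.8 TPM to at most 0.2 TPM. Krt8, a keratin of simple epithelia, rose from 1.8, 1.9 and 3.6 TPM to 2302.3, 2393.5 and 2362.3 TPM (log2 fold change 9.46, SE 0.18, limma adjusted p 2.69e-08). The claudin gene Cldn4 rose from at most 0.4 TPM to 223.8 to 237.2 TPM, and the glucose transporter gene Slc2a3 from at most 0.2 TPM to 88.5 to 95.4 TPM. Their peaks were weak, with 2.93-fold enrichment near Krt8, 3.79-fold near Cldn4 and at most 5.86-fold near Slc2a3.

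In the Runx1-only class Col5a2, a fibrillar collagen, fell from 148.1 to 149.9 TPM to 13.2 to 15.3 TPM, and the homeobox gene Hlx from 23.1 to 25.4 TPM to 1.3 to 1.9 TPM. Ntn1, which encodes the guidance cue netrin, fell from 75.5 to 80.5 TPM to 7.6 to 9.3 TPM. Mal, a lipid raft protein of epithelia, rose from 0.1 TPM in each control library to 163.9 to 168.8 TPM (log2 fold change 7.25, SE 0.04, limma adjusted p 2.81e-10), B3gnt3, a glycosyltransferase, from at most 0.5 TPM to 107.9 to 114.0 TPM, and Pcolce2 from at most 1.2 TPM to between 16 and 18.4 TPM. The Runx1-only peaks of Ntn1 and B3gnt3 had unique summit bases, those of Col5a2, Hlx, Mal and Pcolce2 recurring ones. The peak of Ntn1, 22 bp from a start with a fold enrichment of 3.79, lay in a Runx1-dependent region.

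A list of 11 loci that the study displayed as lower in Runx1KO cells was looked up. Loci that it displayed for their rise, such as Pard6b, Grhl2 and Itgb4, were not on the list. As the study picked the 11 on these data, their direction is not independent evidence. All 11 were lower in Runx1KO cells, where 5.1% of genes tested were. A shared peak was nearest to 5 of them, Gdnf, Pak3, Tnc, Zfp810 and Inhbb, and 4 of them, Osr1, Igfbp4, Zeb1 and Zeb2, had no peak assigned within 100 kb. A peak was assigned only to the gene with the nearest start, so a peak nearer to another start was not counted for these genes. Twist2 had 1 and Lef1 2 Runx2-only peaks, and none of the 11 had a Runx1-only peak. The strongest shared peak is printed as before for the 3 loci whose printed window held a Runx word, for Gdnf at chr15:7812964-7813064, for Pak3 at chrX:139936010-139936110 and for Zfp810 at chr9:22114143-22114243, all between genes and in Runx1-dependent regions.
Gdnf: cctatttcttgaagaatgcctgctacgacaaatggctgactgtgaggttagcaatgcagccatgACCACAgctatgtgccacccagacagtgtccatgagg
Pak3: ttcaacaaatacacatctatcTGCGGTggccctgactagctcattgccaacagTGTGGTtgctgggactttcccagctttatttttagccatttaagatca
Zfp810: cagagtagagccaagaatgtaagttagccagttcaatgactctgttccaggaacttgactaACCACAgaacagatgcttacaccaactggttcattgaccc

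The peak of Gdnf, the ureteric bud growth factor, was 4.38-fold enriched for Runx1 with 14 reads and 8.52-fold for Runx2 with 40 reads. Gdnf was at 13.1, 11.4 and 13.6 TPM in control and at 0.1 TPM in each Runx1KO library (log2 fold change -3.64, SE 0.08, limma adjusted p 5.95e-08). The peak of Pak3, a kinase, was 7.56-fold enriched for Runx1 and 7.21-fold for Runx2, 17074 bp before the gene, which went from 10.6, 9.7 and 10.4 TPM to 0.1 TPM in each. The peak of the zinc finger gene Zfp810 was 7.24-fold and 7.15-fold enriched, and the gene went from 13.7, 11.9 and 13.0 TPM to 0 in each. The peak of Tnc had 5.84-fold enrichment for Runx1 and 8.06-fold for Runx2, and Tnc fell from 89.4, 80.8 and 89.8 TPM to 1.3, 1.1 and 1.0 TPM. At Inhbb the values were 5.47-fold and 4.15-fold. All 5 peaks lay in Runx1-dependent regions and kept a Runx2 peak in Runx1KO cells. The study displayed these loci as examples of that pattern, so it is not independent evidence either. Over all shared Runx1 peaks 16.05% overlapped a Runx1-dependent region and 82.5% a Runx2 peak of Runx1KO cells.

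**Figure D5:**
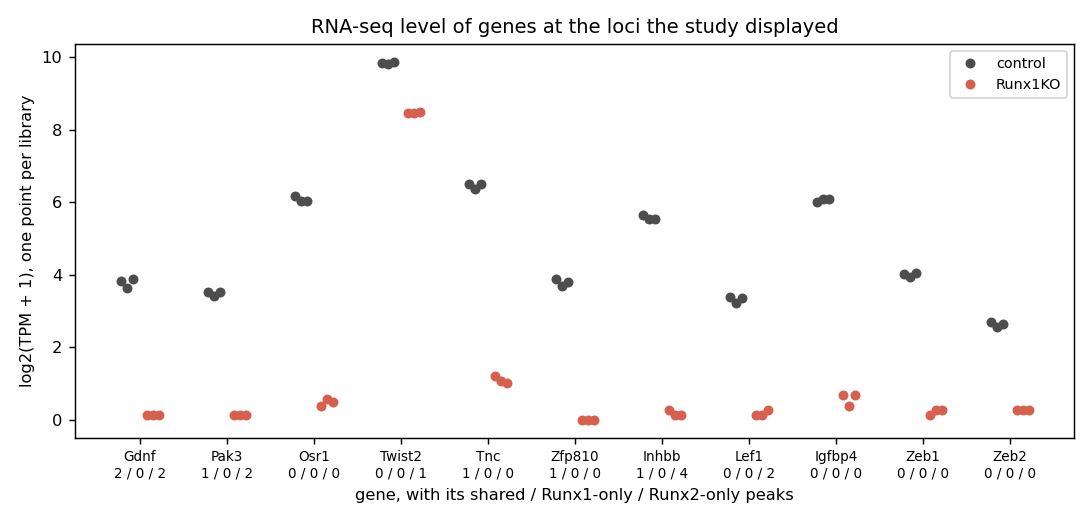
RNA-seq level of the 11 loci that the study displayed as lower in Runx1KO cells, as log2(TPM + 1) (y axis). Each point is 1 library, control in grey and Runx1KO in red. Under each gene stand its shared, Runx1-only and Runx2-only peaks. The control and Runx1KO libraries of every gene do not overlap, with or without a shared peak.

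Other genes were looked up by list. For comparison, 7.91% of all genes tested rose and 5.1% fell, and of those with a position 29.6% were nearest to a shared and 44.7% to a Runx2-only peak. Of 10 AP-1 genes 6 had a shared and 6 a Runx2-only peak, 8 were tested and 3 rose, Fos, Fosb and Atf3. Fos had 4 shared and 6 Runx2-only peaks and rose from 400.1, 412.7 and 421.7 TPM to 1467.3, 1548.6 and 1485.1 TPM. Of 9 bone genes known as Runx2 targets 4 had a shared peak, 4 were tested and 1 fell, Spp1, a matrix protein, from 174.0 to 179.3 TPM to 78.3 to 82.0 TPM. Of its 2 shared peaks, the one 127 to 175 bp from the start was 5.25-fold enriched for Runx1 and 5.55-fold for Runx2 and lay in a Runx1-independent region. The other, over 27 kb before the start, was 4.76-fold and 6.63-fold enriched and lay in a Runx1-dependent region. Of 8 blood genes known as Runx1 targets 6 had a matched position, none of these had a shared and 2 a Runx2-only peak. Of the 4 tested, Spi1 and Csf1r rose, Spi1 from at most 0.1 TPM to 22.6 to 26.8 TPM. Of 9 Tead and Hippo genes all 9 had a Runx2-only peak or more and 3 a shared one, and none of the 7 tested passed the limit.

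Markers of the line were checked in control libraries. Of 19 metanephric mesenchyme genes 11 had a mean of at least 1 TPM, among them Pax2, Hoxa11 and Sall1, while Six2, Wt1, Cited1, Hoxd11 and Tcf21 stayed at or below 0.4 TPM. A shared peak was nearest to 7 of the 19, against 29.6% of tested genes with a position. Osr1, Gdnf and Eya1 fell in Runx1KO cells, 3 of the 11 tested, against 5.1% of all genes tested. Of 13 mesenchymal genes 11 reached 1 TPM, led by Vim and Twist2. Of 4 epithelial genes Krt8 alone did, and Cdh1 and Epcam did not exceed 0.1 TPM. Ptprc of blood and Ibsp of bone were listed at 0, Sp7 and Pecam1 were at 0.1 TPM, the bone gene Bglap was at 2.9, 1.8 and 2.3 TPM, and the endothelial gene Cdh5 was at 4.0, 2.8 and 4.4 TPM.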

How the data were processed

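Per the methods, ChIP-seq reads were aligned to mm9 with STAR, cleared of duplicates with sambamba and called with MACS2 by the authors on pooled replicates. The setting for reads with several matches is not given in the sources used here. The deposited peak lists hold a fold enrichment (a ratio), −log10 p and a score that is −log10 q, with q up to 0.0455 (Runx1) and 0.0494 (Runx2). Their methods also describe replicate-wise lists and a stricter q, and which call made these lists is not given in the sources used here. The authors' ATAC-seq lists carry log2 values of their own comparison, of which the positions alone were used. The authors deposited RNA-seq as TPM, which keeps no depth.

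Whole reads and background at each summit were recovered from MACS2's fold and p for 100% of peaks, within 0.0001 in −log10 p. Motifs, gene distances (GENCODE vM1, NCBIM37, the mm9 sequence) and genome copies of the 31 summit bases were computed in Python 3.11.15 on assembled chromosomes, which leaves out 212 Runx1 and 238 Runx2 peaks. Symbols placed 82.0% of tested genes. Control and Runx1KO RNA-seq (3 libraries each) were compared with limma 3.58.1 (R 4.3.3, trend) on log2(TPM + 1), for genes reaching 1 TPM in 3 or more libraries, with Benjamini-Hochberg adjustment, after a check on simulated data. Per the methods the RNA-seq replicates were triplicate cultures, so p-values measure the spread between cultures and not between clones.

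Named are the 6 strongest peaks and 4 genes with most peaks per class, the listed genes, and the 3 called genes of largest change per class and direction. Classes, lists and tests were chosen with earlier results of these data known, and the split by genome copies was added after seeing the peaks. Alternatives covered overlap, strength, windows, motifs, distances, pseudocounts, filters, scaling and left-out libraries.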

Additional observations from a re-analysis of the deposited data

How the results depend on the processing

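With 1 pooled list per antibody, no value per replicate limits the peak shares, whose precision is that of counting. Of 184 alternatives to 25 results, 123 were counted as keeping the value, 59 moved it and 2 changed its sign. Keeping meant staying within the interval of the main value. Counts of called genes have no interval and had to stay within a set factor of the main count. A pseudocount of 0.1 TPM, with 1201 higher and 822 lower genes against 1034 and 666, was thus counted as keeping them. The causes were not tested beyond what each alternative removes. Differences (gaps) here are in percentage points or fold units, and widths are log2 ratios of medians.

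With 50% of the peak itself covered, 59.5% of Runx1 and 24.4% of Runx2 peaks were shared. With 50% of both peaks, 40.5% and 23.5% were shared, the fold gap of the Runx1 list was 0.817 and the width ratios were 0.771 and 0.80. With summits within the 100 bp limit the shares were 50.98% and 29.5%, the fold gaps 0.777 and 1.598, the width ratios 0.561 and 0.98, and the accessible share exceeded that of Runx1-only peaks by 53.8 (shared) and 40.9 (Runx2-only).

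With q of 0.01 or lower, 62.8% of Runx1 peaks were shared, and Runx2-only exceeded Runx1-only peaks by 57.4 in accessibility and 46.6 in Runx2 peaks of Runx1KO cells. Among peaks above the median fold, 68.6% and 39.35% were shared. The smallest gap to Runx1-only peaks within bins of fold enrichment, for shared and Runx2-only peaks, was 65.8 and 49.9 in accessibility, 21.6 and 14.5 for TGTGGT and 69.9 and 31.9 for Runx2 in Runx1KO cells, and 6.645 for AP-1 at shared peaks. In windows reaching 50 bases the gaps were 26.6 and 15.1 for TGTGGT and 6.81 and 3.03 for AP-1. Over the whole peak they were 36.6 and 22.8 for TGTGGT and 13.2 for AP-1 at shared peaks. For TGTGGT or TGCGGT in the main window they were 48.5 and 28.0. With 50% of the peak covered by the Runx1KO Runx2 peak they were 74.7 and 38.9.

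With both lists restricted to unique summit bases before matching, chosen after seeing the data, 92.7% of Runx1 and 37.1% of Runx2 peaks were shared. The fold gaps were 0.791 and 1.74 and the width ratios 0.75 and 1.03. The gaps to Runx1-only peaks, for shared and Runx2-only peaks, were 26.7 and 16.7 in accessibility, 19.1 and 24.5 within 1 kb of a start, 46.1 and 18.6 for Runx2 in Runx1KO cells, 10.4 and -0.799 for TGTGGT and 0.257 and -5.92 for AP-1. Both negative values changed sign, but the interval of the first (-5.71 to 3.91) held 0 and that of the second (-9.76 to -2.70) did not.

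Genes lower near shared peaks were 4.63% within 20 kb and 6.505% with a pseudocount of 0.1 TPM, and near Runx2-only peaks 5.29% with the latter. With no filter the Runx1-only class had 4.96% lower and 6.95% higher and the Runx2-only class 5.67% higher, and with unique summits 3.70% of the Runx1-only class were lower. Replicate numbers did not pair the RNA-seq libraries (correlations of same-numbered libraries -0.053, 0.014 and 0.002), and the replicate block gave 1039 higher and 669 lower genes against 1034 and 666. Leaving out a library gave 1030 to 1054 higher and 675 to 693 lower genes. Of 944 values for 79 named genes none reversed, 934 kept their call, 9 passed the limit newly (Tead3, Tle4, Tle2 and Jun) and 1 lost it, Cdh5 in the table of 6 libraries.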
